A study of Gallus gallus with 4 samples.

Results

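Proteasome genes were followed in RNA sequencing libraries of whole chick (Gallus gallus) embryos. The genes were chosen by symbol, as PSMA to PSMG followed by a number with at least 20 reads summed over the libraries. This gave 26 genes of the 13081 in the table, and all 26 passed the minimum of reads, PSMG4 with the fewest at 14102. They comprise 6 genes of the alpha ring (PSMA), 1 of the beta ring (PSMB1) and 4 of the ATPase ring (PSMC). The others are 10 PSMD genes, the activator PSME4, the inhibitor PSMF1 and 3 assembly chaperones (PSMG). All PSMD genes are counted here with the regulatory particle, though PSMD5, PSMD9 and PSMD10 encode assembly chaperones. The catalytic subunits PSMB5, PSMB6 and PSMB7 were not analysed here under those symbols.

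The libraries are thalidomide (40 µg/ml), spermine NONOate (10 µM), both together, called the combination, and control (DMSO). Each condition has 1 library. All embryos were treated at Hamburger-Hamilton stage 8 and collected whole on day 6; the sources used here do not state strain, sex or how many embryos a library holds. Spermine NONOate releases nitric oxide, and the question of the study is how nitric oxide acts on gene expression in embryos given thalidomide.

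The proteasome is the protease that degrades proteins tagged with ubiquitin. Its core particle stacks rings of alpha subunits, which gate the entrance, on rings of beta subunits, which hold the proteolytic sites. The regulatory particle caps the core: its lid removes ubiquitin, while its base holds receptors for ubiquitin and the ATPases that unfold the substrate and feed it in. Thalidomide binds cereblon, through which a ubiquitin ligase picks proteins for destruction by the proteasome. The roles given below for single subunits are known from mammalian and yeast proteasomes.

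The libraries held between 62576258 and 79359076 reads in genes, and between 12859 and 12934 genes had a read. Levels are normalised read counts, given as CPM after TMM scaling, in which most genes are taken to be level between libraries. Transcript lengths were not used here, so levels of different genes are not compared. With 1 library per condition no difference has a replicate check, and intervals at 95% cover counting error only. Tissue markers from lists of known genes were read in every library, none at 0. Their summed levels differed between the libraries: 7 red cell genes held 5170 CPM in the thalidomide library, 24174 CPM with spermine NONOate, 8574 CPM in the combination and 25924 CPM in control. For 7 lens genes the sums were 654, 2130, 1448 and 3845 CPM in the same order of libraries, and for 9 liver and yolk sac genes 327, 2028, 1016 and 387 CPM. Skeletal muscle (3 genes: 91.4, 304, 155 and 414 CPM) and kidney (4 genes: 160, 97.9, 171 and 39.1 CPM) also differed widely. Not every tissue did: 3 heart genes held 152, 115, 130 and 153 CPM, and 2 endothelium genes 307, 274, 334 and 281 CPM. The part of tissue makeup in the proteasome values was not tested. In whole embryos, fewer cells of a type and less RNA per cell cannot be told apart.

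Most proteasome genes were lower in both libraries that had thalidomide than in both that had not. This held for 22 of the 26 genes, against 33.2% of 12090 genes with at least 20 reads in at least 2 libraries, and 37.5% of the 5437 genes with at least 10000 reads summed, as all members have. The exceptions were PSMD1, PSMD2, PSMD5 and PSME4. Of these PSMD2 and PSME4 were higher in both libraries with thalidomide, an arrangement seen in 33.6% of all genes. Scaled to total counts, which moves the share of all genes to 22.7% below and 43.7% above, 20 of the 26 were lower and 3 higher. Both libraries with spermine NONOate lay below both without it in 1 gene, PSMD1, beside 7.73% of all genes, and above in none, beside 8.98%. The combination library was lowest for 21 genes and highest for none, beside 24% and 22.6% of the 12090 genes. Control was highest for 17, beside 25.3%. The commonest order, in 16 genes, ran from the combination as the lowest through thalidomide and spermine NONOate up to control, beside 7.39% of the 12090 genes and 10.6% of the abundant ones.

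**Figure D1:**
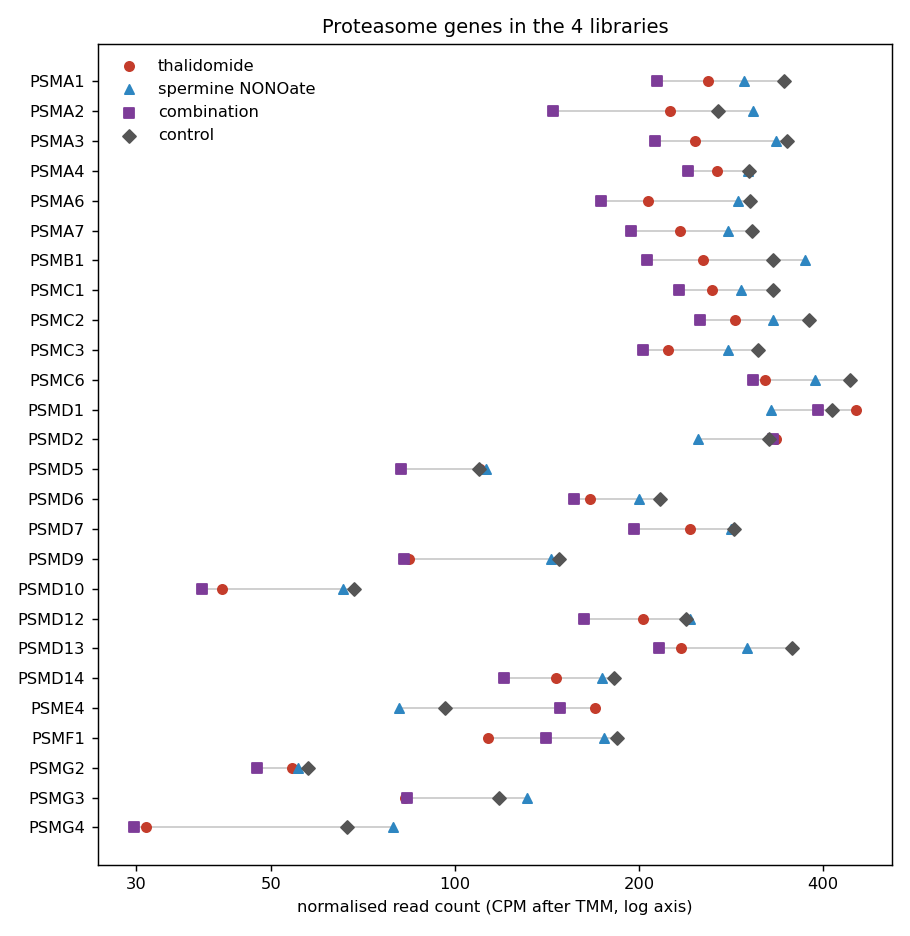
Normalised read counts (CPM after TMM, log axis) of the 26 proteasome genes, 1 row per gene and 1 point per library; the grey line joins the lowest and the highest library. In 22 rows the thalidomide and combination points both lie left of the spermine NONOate and control points.

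In thalidomide against control the median log2 ratio of the 26 genes was -0.39, beside -0.01 over the 12138 genes with 20 reads in either library. Of the 26 genes 22 had a ratio below 0, as had 50.6% of all genes. These differences were small for single genes. By a rule of size (a difference of 2-fold or more after adding 0.5 reads to every count, 20 or more reads in the higher library, and a counting interval that leaves out a ratio of 1) 1 gene, PSMG4, was lower and none higher. The same rule called 7.23% of all genes lower and 9.22% higher, but among the 5437 genes with at least 10000 reads it called 3.66% lower and 4.52% higher. On the lower side the count of called members, 1 of 26, is close to that share. At 1.5-fold 5 members were lower and 1 higher, beside 18.9% and 20.3% of all genes and 15.5% and 15.2% of the abundant ones, so the share on the lower side is near the background. In the authors' deposited table no member had an unadjusted p under 0.05, beside 1.7% of genes lower and 3.25% higher.

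The combination against spermine NONOate asks the same question with the nitric oxide donor present, and shares no library with the first comparison. There the median of the 26 genes was -0.48, beside 0.01 over 12161 genes. Below 0 were 23 of the 26, beside 49.4% of all genes and 50.7% of the abundant ones. The rule of size called PSMG4 and PSMA2 lower and none higher, beside 6.03% and 9.84% of all genes and 3.97% and 6.88% of the abundant ones. At 1.5-fold 8 were lower and 1 higher, beside 17.9% and 21.1%. At an unadjusted p under 0.05 the authors' deposited table held PSMG4 as lower and none as higher, beside 1.61% and 3.13% of genes. Of the 26 genes 25 kept the sign they had in thalidomide against control. So did 76.2% of 12026 genes and 79.3% of the abundant ones. Across the 26 genes the log2 ratios of the 2 comparisons had a Pearson correlation of 0.82 and a Spearman correlation of 0.58, a description over genes that share their libraries. Over all genes these correlations were 0.66 and 0.68, and over the abundant genes 0.78 and 0.77.

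The 4 libraries also form a 2 by 2 layout, which was fitted across 12090 genes with edgeR's quasi-likelihood F test, the treatments being additive on the log scale. It leaves 1 residual degree of freedom, and edgeR pooled the spread over all genes, with prior degrees of freedom without limit. A gene's own difference between the ratios for thalidomide without and with spermine NONOate thus hardly enters its SE, and the p is no test over biological replicates. For thalidomide 13 of the 26 genes were lower and 1 higher at a Benjamini-Hochberg adjusted p under 0.05, beside 14.9% and 17.6% of all genes and 19.7% and 19.6% of the abundant ones. The median effect over the 26 genes was -0.43 on the log2 scale. For spermine NONOate none of the 26 passed, with edgeR or with DESeq2, and none had an unadjusted p under 0.05 with either tool. Among all genes 2.03% were higher and 0.199% lower at an edgeR adjusted p under 0.05, and 6.66% had an unadjusted p under it.

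**Figure D2:**
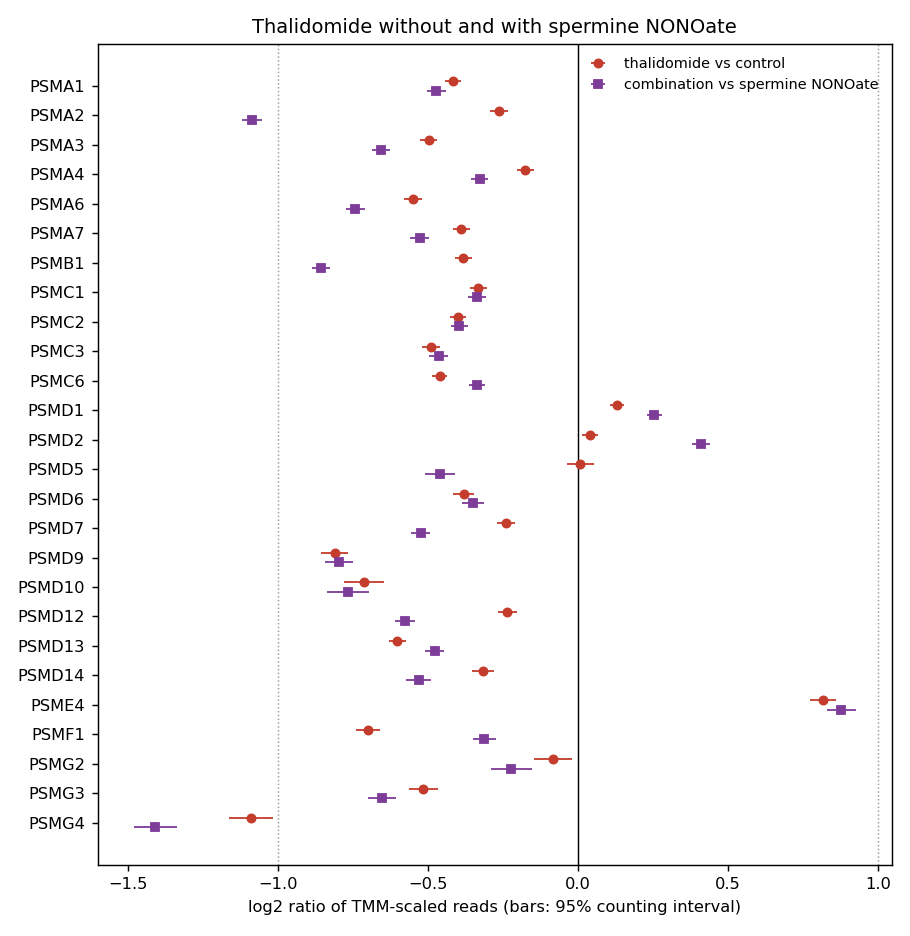
Log2 ratios of the 26 genes for thalidomide against control (circles) and the combination against spermine NONOate (squares), with 95% counting intervals; dotted lines mark 2-fold. PSMG4 passes the line in both, PSMA2 in the combination against spermine NONOate, and PSME4 is furthest to the right in both.

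The alpha ring subunits form the gate of the core and dock its caps. PSMA6 had 207 CPM in the thalidomide library, 290 with spermine NONOate, 173 in the combination and 304 in control. Both libraries with thalidomide were low, and the additive fit gave a thalidomide effect of -0.65 ± 0.19 (log2, SE; edgeR adjusted p = 0.0029). PSMA1 had 259, 298, 214 and 346 CPM in the same order of libraries, with an effect of -0.44 ± 0.18 (edgeR adjusted p = 0.048). PSMA4 varied least of the 6 alpha ring genes, at 269, 302, 240 and 303 CPM. Its levels with spermine NONOate and in control lay within counting error of each other (log2 -0.01, -0.04 to 0.02). Its thalidomide effect did not pass (-0.25 ± 0.18, edgeR adjusted p = 0.30). PSMA3 and PSMA7 lay between these, with effects of -0.58 and -0.46 that both passed.

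PSMA2 stood out among the 6 alpha ring genes. It had 225 CPM in the thalidomide library, 308 with spermine NONOate, 145 in the combination and 270 in control. The combination was thus 2.13-fold below spermine NONOate (log2 -1.09, -1.12 to -1.05), while thalidomide alone was 1.20-fold below control (log2 -0.26, -0.29 to -0.23). The additive fit gave a thalidomide effect of -0.68 ± 0.19 (edgeR adjusted p = 0.0021), in which the gap between these ratios hardly counts. With libraries scaled to total counts the difference between the combination and spermine NONOate was -0.93 and missed 2-fold. In the authors' deposited table PSMA2 had the smallest p of the 26 genes in the combination against thalidomide, 0.0207 unadjusted.

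PSMB1, a beta ring subunit without a proteolytic site of its own, followed the same order of libraries. It had 255 CPM with thalidomide, 374 with spermine NONOate, 206 in the combination and 332 in control. The thalidomide effect was -0.62 ± 0.18 (log2, SE; edgeR adjusted p = 0.0042). PSMB1 was 1.81-fold lower in the combination than with spermine NONOate, and 1.30-fold lower with thalidomide alone than in control.

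The 4 ATPase genes among the members were close to each other. In PSMC1, PSMC2, PSMC3 and PSMC6 the log2 ratio of thalidomide to control lay between -0.49 and -0.33, that of the combination to spermine NONOate between -0.47 and -0.34, and that of spermine NONOate to control between -0.20 and -0.16. PSMC2 had 287 CPM with thalidomide, 331 with spermine NONOate, 252 in the combination and 380 in control. PSMC1 had 263, 294, 233 and 331 CPM in those libraries. PSMC3, with 223, 280, 203 and 313 CPM, was the ATPase gene that passed the additive fit (-0.48 ± 0.18, edgeR adjusted p = 0.033); PSMC1, PSMC2 and PSMC6 did not, at adjusted p of 0.15, 0.077 and 0.073. The SD across the 4 genes was 0.07 in thalidomide against control. It was 0.14 across the 6 alpha ring genes, 0.61 across the genes with at least 10000 reads and 0.86 across all genes tested.

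The PSMD genes differed more among themselves than the ATPases, with an SD of 0.32 across the 10 genes in thalidomide against control. PSMD1 and PSMD2 encode the large scaffold subunits of the base. Neither was lower in thalidomide against control or in the combination against spermine NONOate. In the combination against control PSMD1 was slightly lower (log2 -0.08, -0.10 to -0.06). PSMD1 had 454 CPM in the thalidomide library, 329 with spermine NONOate, 392 CPM in the combination and 415 in control. PSMD2 had 336, 250, 331 and 327 CPM, so spermine NONOate alone was the low library for both genes. Against control it was lower by log2 -0.34 (-0.36 to -0.31) for PSMD1 and -0.39 (-0.42 to -0.36) for PSMD2, short of 2-fold.

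PSMD5, PSMD9 and PSMD10 share the PSMD name but encode chaperones that help assemble the base and are not part of the finished particle. PSMD9 had 84.2 CPM with thalidomide, 143 with spermine NONOate, 82.5 in the combination and 148 in control. The thalidomide effect of PSMD9 was -0.81 ± 0.20 (edgeR adjusted p = 0.00036) and that of PSMD10 -0.74 ± 0.22 (edgeR adjusted p = 0.0035), the lowest of the 10 PSMD genes. PSMD5 had 110, 112, 81.5 and 109 CPM, with the combination alone set apart. Its log2 ratio was 0.01 (-0.04 to 0.05) in thalidomide against control and -0.46 (-0.51 to -0.41) in the combination against spermine NONOate.

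The lid genes among the members, PSMD6, PSMD7, PSMD12, PSMD13 and PSMD14, were all lower in both libraries with thalidomide. PSMD14, the subunit that cuts ubiquitin chains off the substrate, had 146 CPM with thalidomide, 174 with spermine NONOate, 120 in the combination and 182 in control. PSMD13 was the 1 of these lid genes that passed the additive fit (-0.54 ± 0.18, edgeR adjusted p = 0.014). The other 4 had effects from -0.42 to -0.37, with edgeR adjusted p from 0.071 to 0.12.

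The activator and the inhibitor differed in direction. PSME4, which encodes a large activator that caps the core in place of the regulatory particle, had 170 CPM in the thalidomide library, 80.8 with spermine NONOate, 148 in the combination and 96.4 in control. It was the highest of the 26 genes by ratio in both thalidomide comparisons, 1.76-fold higher with thalidomide than in control (log2 0.82, 0.77 to 0.86) and 1.84-fold higher in the combination than with spermine NONOate (0.88, 0.83 to 0.93). The additive fit gave 0.85 ± 0.19 (edgeR adjusted p = 0.00015), and PSME4 was the 1 gene that passed on the higher side. Scaled to total counts it passed 2-fold in both comparisons (log2 1.02 and 1.04), where that scaling raises the median of all genes by 0.20 and 0.16. PSMF1, which inhibits the core in the test tube, had 113, 175, 141 and 184 CPM. Its thalidomide effect was -0.51 ± 0.19 (edgeR adjusted p = 0.029). It was lowest with thalidomide alone, and the combination was 1.24-fold above that library (log2 0.31, 0.27 to 0.36).

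PSMG3 and PSMG4 form a pair of chaperones that build the alpha ring, and PSMG2 belongs to a further pair. PSMG4 had 31.2 CPM with thalidomide, 79.0 with spermine NONOate, 29.7 in the combination and 66.4 in control. Both libraries with thalidomide lay under both without it by more than 2-fold: log2 -1.09 (-1.16 to -1.02) for thalidomide against control and -1.41 (-1.48 to -1.34) for the combination against spermine NONOate. Its effect of -1.25 ± 0.22 had the smallest p of the 26 genes (edgeR adjusted p = 3.8e-07). Scaled to total counts it missed 2-fold against control, at -0.89 with thalidomide and -0.93 in the combination. In the authors' deposited table its unadjusted p was 0.0757 in the first comparison and 0.0244 in the second. PSMG3, its partner, was lower as well (-0.59 ± 0.20, edgeR adjusted p = 0.012). PSMG2 hardly differed, at 54.1, 55.2, 47.3 and 57.4 CPM (-0.15 ± 0.21, edgeR adjusted p = 0.62).

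A pair of genes whose symbols the rule does not match bear on the groups above. DSCR2 is an older symbol of PSMG1, the partner of PSMG2, by RefSeq. It had 98.8 CPM with thalidomide, 98.6 with spermine NONOate, 80.1 in the combination and 96.5 in control, so that, like PSMG2, it was lowest in the combination. CPSMB7 lies on chromosome 17, where RefSeq also places PSMB7, but the RefSeq table does not link the symbols. It had 358, 460, 295 and 511 CPM.

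The core was next set against the regulatory particle. The core here is 6 alpha ring genes and PSMB1, the 1 beta ring gene among the members, so its values are mostly those of the alpha ring. Summed over these 7 genes the core held 1696 CPM in the thalidomide library, 2187 with spermine NONOate, 1386 in the combination and 2211 in control. The 14 genes counted as the regulatory particle, with PSMD5, PSMD9 and PSMD10 among them, held 3113, 3392, 2772 and 3815 CPM. The ratio of core to regulatory particle reads was 0.545 (0.541 to 0.549) with thalidomide, 0.645 (0.640 to 0.649) with spermine NONOate, 0.50 (0.496 to 0.504) in the combination and 0.580 (0.576 to 0.583) in control. Library scaling does not enter this ratio, and the counting intervals of the 4 libraries do not overlap. The place of thalidomide below control in this ratio depends on PSMD1 and PSMD2, which were not lower in the thalidomide library than in control. They held 32041 and 23698 of the 219647 regulatory particle reads with thalidomide, and 30256 and 23829 of the 278121 in control. Spread between embryos is unknown.

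By medians over genes the particles were closer. The median log2 ratio of the core minus that of the regulatory particle was -0.03 in thalidomide against control, where the medians were -0.39 and -0.36. It was 0.08 in spermine NONOate against control (-0.06 and -0.14), -0.14 in the combination against control (-0.69 and -0.55), -0.11 in the combination against thalidomide (-0.27 and -0.16) and -0.19 in the combination against spermine NONOate (-0.66 and -0.46). Of the core genes 7 of 7, and of the regulatory particle genes 11 of 14, were lower in both libraries with thalidomide. PSMD1 and PSMD2 bear on some of these values. Without them the difference was 0.0019 in thalidomide against control, 0.033 in spermine NONOate against control and -0.12 in the combination against control. It was -0.11 in the combination against thalidomide, as with them, and -0.19 in the combination against spermine NONOate. Leaving them out was chosen after the data were seen.

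**Figure D3:**
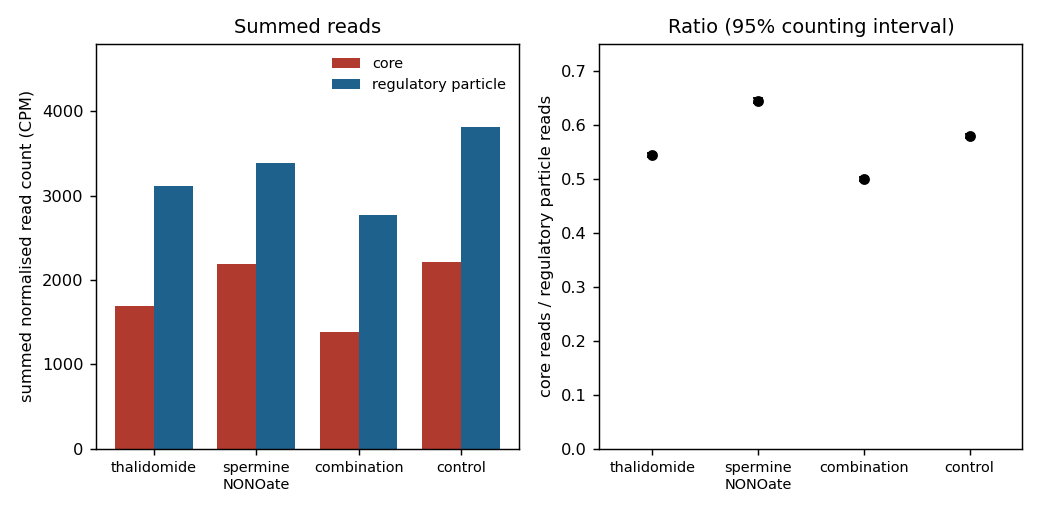
Left, summed CPM of the 7 core genes (6 of the alpha ring and PSMB1) and 14 regulatory particle genes in each library. Right, the ratio of their reads with 95% counting intervals: 0.545 with thalidomide, 0.645 with spermine NONOate, 0.50 in the combination and 0.580 in control.

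Spermine NONOate alone was set against control to ask what the nitric oxide donor does by itself. No proteasome gene passed the rule of size, beside 4.33% of all genes higher and 1.33% lower, and none passed 1.5-fold, beside 8.82% and 4.24%. Among the abundant genes these shares were 0.772% and 0.257% at 2-fold and 1.82% and 1.58% at 1.5-fold, so a count of 0 among 26 is near the background. In the authors' deposited table none had an unadjusted p under 0.05, beside 3.59% of genes higher and 0.864% lower. The median log2 ratio was -0.07, beside -0.05 over 12066 genes, and the genes lay between -0.39 (PSMD2) and 0.25 (PSMG4). Of the 26 genes 20 were below 0, beside 65.8% of the abundant genes. Under total counts 13 were below 0, and that scaling moves all genes alike: the median of the 26 minus that of all genes was -0.02 in each scaling.

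Most of the genes were a little lower in the combination library than in the thalidomide library. In the combination against thalidomide the median was -0.19, beside 0.00 over 12154 genes and -0.06 over the abundant ones. Below 0 were 24 of the 26 genes, beside 6076 of the 12154 genes and 58.8% of the abundant ones. No member passed the rule of size, beside 3.74% higher and 1.26% lower in all genes and 0.809% and 0.0184% in the abundant ones. At 1.5-fold PSMA2 was lower, beside 4.36% lower and 9.35% higher. PSMA2 was also the member under 0.05 by unadjusted p in the authors' deposited table, beside 1.45% of genes lower and 3.01% higher. The 7 core genes lay between -0.63 and -0.16 and the 14 regulatory particle genes between -0.43 and -0.02, all below 0. This comparison shares no library with spermine NONOate against control. Across the 26 genes the log2 ratios of the 2 comparisons had a Pearson correlation of -0.25 and a Spearman correlation of -0.25. Over 11947 genes these were 0.24 and -0.01, and over the 5437 abundant genes 0.13 and -0.21, so the Spearman value is near that of the abundant genes. The sign was the same in 20 of the 26 genes, 19 of them below 0 in both, beside 48.5% of all genes and 47.5% of the abundant ones. The combination stood furthest from control, with a median of -0.58 beside -0.0023 over 12176 genes. There the rule of size called PSMG4 alone (2.23-fold lower), beside 4.16% lower and 10.1% higher in all genes and 2.67% and 4.27% in the abundant ones. At 1.5-fold 13 were lower and 1 higher, beside 15.6% and 20.8%. PSMG4 was also the member with an unadjusted p under 0.05 in the authors' deposited table, beside 1.08% of genes lower and 3.83% higher.

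**Figure D4:**
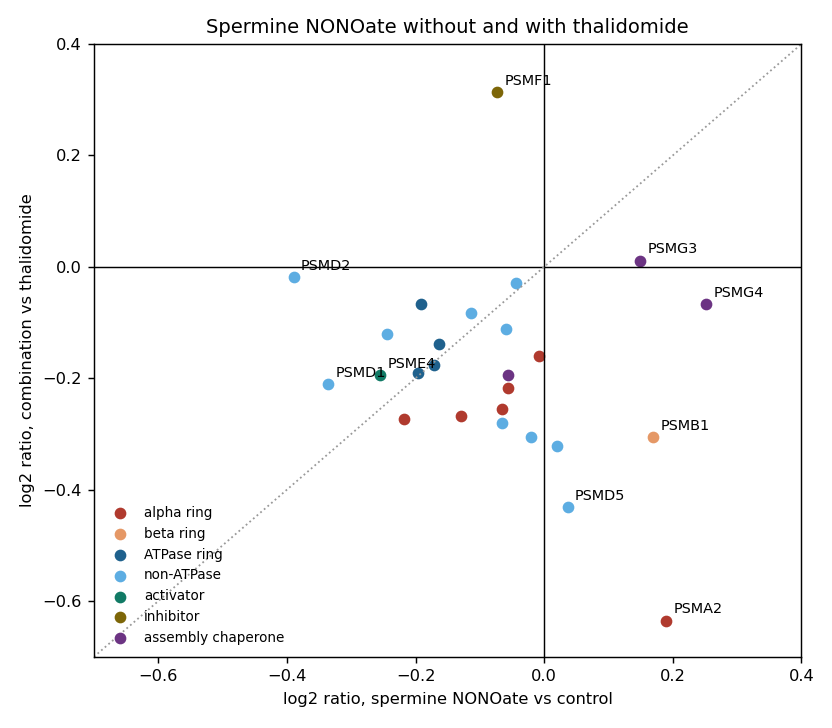
Log2 ratio of each of the 26 genes for spermine NONOate against control (horizontal) and the combination against thalidomide (vertical), coloured by group; on the dotted line both are equal. PSMA2 (0.19 and -0.63) and PSMB1 (0.17 and -0.31) lie at the lower right, PSMF1 (-0.07 and 0.31) at the upper left.

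Other genes of the ubiquitin and proteasome pathway came from a list of 39, of which 23 were found by symbol. In thalidomide against control their median was -0.38, with 17 below 0, and the rule of size called RPS27A, a ubiquitin and ribosomal protein fusion gene, lower and DDI2 higher. In the combination against spermine NONOate the median was -0.33, with 21 below 0, and the rule called POMP and SHFM1 lower and DDI2 higher. In spermine NONOate against control and in the combination against thalidomide it called none of the 23. The counts of called genes are near the shares of all genes given above. The counts below 0 are not: they make 73.9% in thalidomide against control, beside 50.6% of all genes. In the combination against spermine NONOate they make 91.3%, beside 49.4%. DDI2 encodes the protease that releases the active form of NFE2L1, the transcription factor that drives proteasome genes; NFE2L1 itself was not analysed here. DDI2 had 39.4 CPM with thalidomide, 13.1 with spermine NONOate, 42.1 in the combination and 18.1 in control. It was higher by log2 1.12 (1.02 to 1.21) in thalidomide against control and by 1.68 (1.57 to 1.80) in the combination against spermine NONOate. In both it lay on the opposite side from most proteasome genes. Of the 23 genes, 6 were above 0 in the first comparison and 2 in the second, DDI2 among them. Whether DDI2 bears on the proteasome genes was not tested.

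POMP, the chaperone that guides beta subunits onto the alpha ring, had 116 CPM with thalidomide, 192 with spermine NONOate, 88.0 in the combination and 170 in control. SHFM1, a small lid subunit under its older symbol, had 188, 298, 142 and 243 CPM. Both have the order of libraries seen in PSMA2, PSMB1, PSMD12 and PSMG4, with spermine NONOate highest and the combination lowest. In the combination against spermine NONOate both passed the rule of size (POMP log2 -1.13, -1.17 to -1.08; SHFM1 -1.07, -1.10 to -1.04).

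Complexes of similar build give the background for these medians. In thalidomide against control, 51 cytosolic ribosomal protein genes had a median log2 ratio of -1.01, 49 nuclear genes of the respiratory chain -0.69, 8 subunits of translation initiation factor 3 -0.39, 8 of the COP9 signalosome, a relative of the proteasome lid, -0.16, and 7 of the cytosolic chaperonin 0.00. In the combination against spermine NONOate the same lists had medians of -1.03, -0.85, -0.48, -0.37 and -0.05. The proteasome medians of -0.39 and -0.48 were thus smaller in size than those of the ribosome and respiratory chain, and equal at this rounding to those of the initiation factor. In the combination against thalidomide the chaperonin median was -0.31, beside -0.19 for the proteasome.

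**Figure D5:**
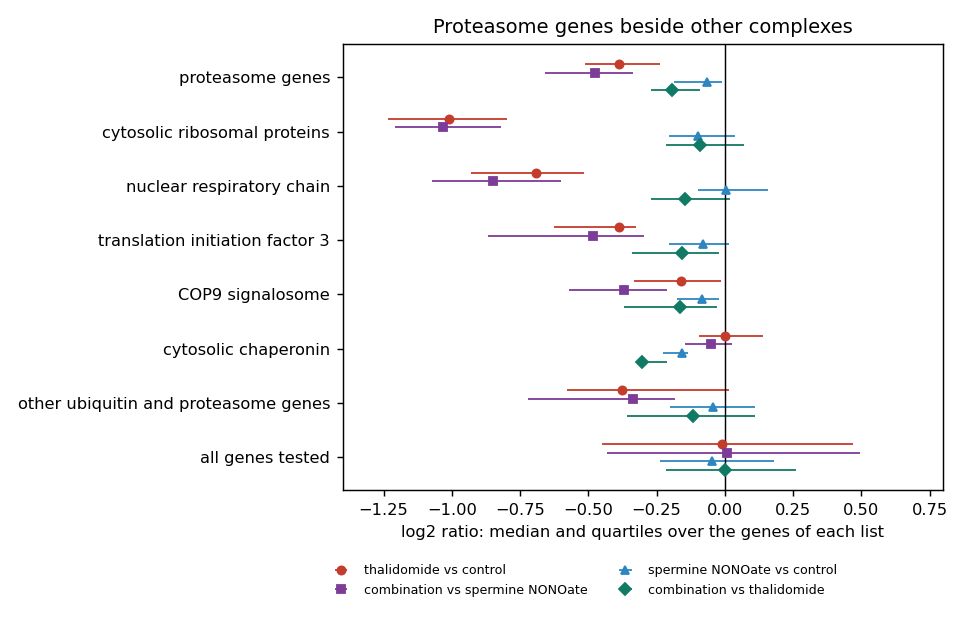
Median log2 ratio (points) and quartiles (bars) over the genes of each list in 4 comparisons. The proteasome medians lie at -0.39 and -0.48 in the comparisons for thalidomide, between those of the ribosomal proteins and the chaperonin.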

How the data were processed

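Total RNA of whole embryos was extracted with Trizol, per the labels' protocols. The submitters' processing notes name TopHat2 2.0.8, galGal4 and DESeq. Gene models came from Ensembl release 75, as the header of the deposited table says. How reads were counted, and whether by strand, is not given in the sources used here; reads of overlapping genes cannot be told apart. The authors deposited raw read counts per gene for 4 libraries. For 5 comparisons they also deposited a linear ratio, its log2 and a p-value, of which the p-values are printed here.

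Counts were scaled with TMM (edgeR 4.0.16, R 4.3.3); DESeq2 1.42.0 served as an alternative. Log2 ratios had 0.5 reads added to each count. Intervals are 95% exact conditional-binomial (Clopper-Pearson) and cover counting error only. SEs are the log2 effect divided by the root of F. Other scalings, a 1.5-fold size, other minimums of reads and other summaries were tried. Members and lists were chosen with earlier results of these data known. Values by library are given for called genes and for the highest and lowest gene of each group in the single treatments; other members named were singled out after their values were seen. RefSeq names are from assembly GRCg7b; sequences were not used here.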

Additional observations from a re-analysis of the deposited data

Results flagged for a closer look

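In 3 genes the ratio for spermine NONOate pointed one way without thalidomide and the other way with it, each beyond counting error. The difference between these ratios was not tested over replicates, since each library stands alone. By sign alone, 20 of the 26 genes kept their direction, beside 48.5% of all genes and 47.5% of the abundant ones. How many of all genes turned beyond counting error was not counted. The log2 ratio of PSMA2 was -0.63 for the combination against thalidomide and 0.19 for spermine NONOate against control, a difference of -0.82 (-0.87 to -0.78). For PSMB1 the ratios were -0.31 and 0.17, a difference of -0.47 (-0.52 to -0.43). For PSMF1 they were 0.31 and -0.07, a difference of 0.39 (0.33 to 0.44). Scaled to total counts, the PSMF1 ratio for spermine NONOate against control was within counting error of 0 (-0.0077, -0.045 to 0.029). So it was by TMM without the 50 most abundant genes (-0.034, -0.071 to 0.003). PSMA2 and PSMB1 kept opposite signs under both scalings. The intervals of the differences are Wald intervals of the counts.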

How the results depend on the processing

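Scaling to total counts, to DESeq2 size factors and by TMM without the 50 most abundant genes gave member medians of -0.19, -0.38 and -0.34 in thalidomide against control; -0.35, -0.58 and -0.54 in the combination against control; and -0.17, -0.21 and -0.20 in the combination against thalidomide. Total counts and size factors gave -0.32 and -0.49 in the combination against spermine NONOate. In spermine NONOate against control, total counts turned the median to 0.00022 and TMM without the 50 genes gave -0.026. The median of all genes shifted equally, by up to 0.22, so the gap between members and all genes was the same in each scaling. The counts of members lower in both libraries with thalidomide were 20 to 22 over the scalings.

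Means in place of medians gave -0.35, -0.078, -0.53, -0.18 and -0.45 for thalidomide, spermine NONOate and the combination against control, then the combination against thalidomide and against spermine NONOate. At 1.5-fold the called members were 6 in thalidomide against control, 14 in the combination against control, 1 in the combination against thalidomide and 9 in the combination against spermine NONOate. Under total counts 0 were called in the combination against control. In thalidomide against control and in the combination against spermine NONOate, PSME4 entered under total counts where PSMG4 or PSMA2 left.

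For the core minus the regulatory particle, summed reads gave -0.090 in thalidomide against control, 0.15 in spermine NONOate against control, -0.21 in the combination against control and -0.37 in the combination against spermine NONOate. Means gave 0.12, -0.16 and -0.29 in the last 3 of these. Without PSMD5, PSMD9 and PSMD10 the differences were -0.057 in thalidomide against control, 0.11 in spermine NONOate against control, -0.092 in the combination against thalidomide and -0.26 in the combination against spermine NONOate. Without PSMD1 and PSMD2 the difference was 0.0019 in thalidomide against control, which turns the sign. It was 0.033 in spermine NONOate against control and -0.12 in the combination against control. Neither of these omissions was planned beforehand.

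In the additive fit 10 members passed for thalidomide with DESeq2, 13 with its size factors in edgeR and 12 without the filter, against 14. Shares of all genes are given here for the main fit only, which gave the 14: 14.9% lower and 17.6% higher. The counts of 10, 13 and 12 thus have no background beside them. None passed for spermine NONOate in any of these settings. No paired analysis was possible because each group has 1 library. Leaving out a library would leave the additive fit without residual degrees of freedom.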
